A study of Mus musculus with 10 samples.

Results

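The genes that encode SR proteins, heterogeneous nuclear ribonucleoproteins (hnRNPs) and their closest splicing partners were followed in mouse microglia after systemic lipopolysaccharide (LPS), the endotoxin of Gram-negative bacteria and a strong activator of macrophages. Members were chosen by symbol alone, as rows of the count table named Srsf with a number, Hnrnp, Srrm with a number, Tra2a or Tra2b, without rows marked as pseudogenes. The rule found 38 of 40789 gene rows, and 34 of the 38 had enough counts to be tested. They were 11 SR protein genes, 2 Tra2 genes, 5 rows named Srrm and 20 hnRNP genes. One of the Srrm rows, Srrm4os, is a long noncoding RNA that the name rule takes in.

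All 10 mice were females of strain C57BL6/J, 2 to 3 months old, with the genotype CX3CR1+/egfp. In these animals an allele of the microglial chemokine receptor gene carries a green fluorescent reporter, so LPS and control mice alike have a single intact copy of that gene. In the LPS group 5 mice received 4 mg/kg LPS into the peritoneum, and in the PBS group 5 mice received saline. Microglia were sorted from the cortex 24 h later by their bright reporter signal, and each library came from 1 mouse, so every test compares 5 animals with 5 animals.

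SR proteins carry serine- and arginine-rich tails and usually bind exonic enhancers, where they help the spliceosome to recognise an exon. HnRNPs coat nascent transcripts, and many of them bind silencer elements and oppose SR proteins at the same exons. Srrm proteins bridge SR proteins to the splicing machinery, and Tra2 proteins are SR-like activators of alternative exons. Several hnRNPs also control the stability of cytokine transcripts in macrophages, the cell family to which microglia belong.

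The libraries held 12928007 to 15332121 counts in LPS mice and 11577295 to 15274421 in PBS mice. All 8 microglial markers were detected in both groups, but their summed level was 13554 to 22704 CPM (the count relative to library size after TMM scaling) in LPS mice and 43955 to 51238 CPM in PBS mice, with 5 of the 8 lower. Border-associated macrophage markers summed to 125 to 245 CPM in LPS mice against 30.6 to 46.4 CPM in PBS mice, with 4 of 5 tested markers higher. Monocyte markers summed to 78.2 to 219 CPM in LPS mice against 13.4 to 22.0 CPM in PBS mice, with 3 of 5 tested markers higher and 1, Ccr2, lower. F13a1 is in both the monocyte and the border-associated macrophage list, and adds to the sum and the higher markers of each. Neutrophil markers summed to 1.92 to 32.3 CPM in LPS mice against 0.162 to 1.12 CPM in PBS mice, with the 1 tested marker higher. Endothelial markers, of which Cldn5 was at 0 in all libraries, summed to 4.77 to 10.8 CPM in LPS mice against 49.3 to 72.9 CPM in PBS mice, with the 1 tested marker lower. Astrocyte markers summed to 145 to 364 CPM in LPS mice against 366 to 427 CPM in PBS mice, with 1 of 4 tested markers lower. No T or NK cell marker had enough counts to be tested, with sums of 0.0783 to 2.79 CPM in LPS mice and 0.437 to 2.57 CPM in PBS mice. The 1 tested B cell marker (Pax5 was at 0 in all libraries), the 1 tested neuronal marker and the 4 tested oligodendrocyte markers were not called. The part of these markers in the values below was not tested, and in sorted cells measured in bulk, fewer cells of a type and less RNA per cell cannot be told apart.

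Of the 10 tested SR protein genes 9 were not called after LPS. Among the 20 hnRNP genes 10 were called, some higher and some lower, which is near the 45.0% of all tested genes that were called. The share of SR protein genes called lay below that 45.0%, and neither share was tested against it. Of the 34 tested members, 13 were called by edgeR's quasi-likelihood test at an adjusted p under 0.05, which is 38.2% of them, against 45.0% of the 13793 genes tested. Of these, 5 were higher in LPS mice, 14.7% of the tested members against 22.4% of all tested genes, and 8 were lower, 23.5% against 22.5%. All 5 higher members were hnRNP genes, whereas the 8 lower ones were 5 hnRNP genes, both tested Srrm genes and 1 SR protein gene. With the gene-length trend of each library removed (described below) the split was 8 higher and 6 lower, and with scaling by library size alone it was 3 higher and 9 lower.

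The changes of the members were small. The median absolute log2 fold change was 0.26 over the tested members and 0.56 over all tested genes. No genes of like abundance were set beside the members, and fold changes scatter more at low counts. Only Hnrnpa1 and Hnrnph3 were called with at least a 2-fold change, 5.88% of the tested members, against 20.3% of all tested genes. The median log2 fold change was -0.07 over the tested members and 0.00 over all tested genes. Groups did not overlap between LPS and PBS mice for 9 members, 4 higher and 5 lower, which is 26.5% of those tested, against 29.8% of all tested genes. All 21 members that were not called had a 95% interval of the log2 fold change that lay between -1 and 1, an interval that comes from the spread of log2 CPM between mice. The members together took up 5032 ± 391 CPM in LPS mice and 5493 ± 412 CPM in PBS mice (SD, n = 5 each).

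**Figure D1:**
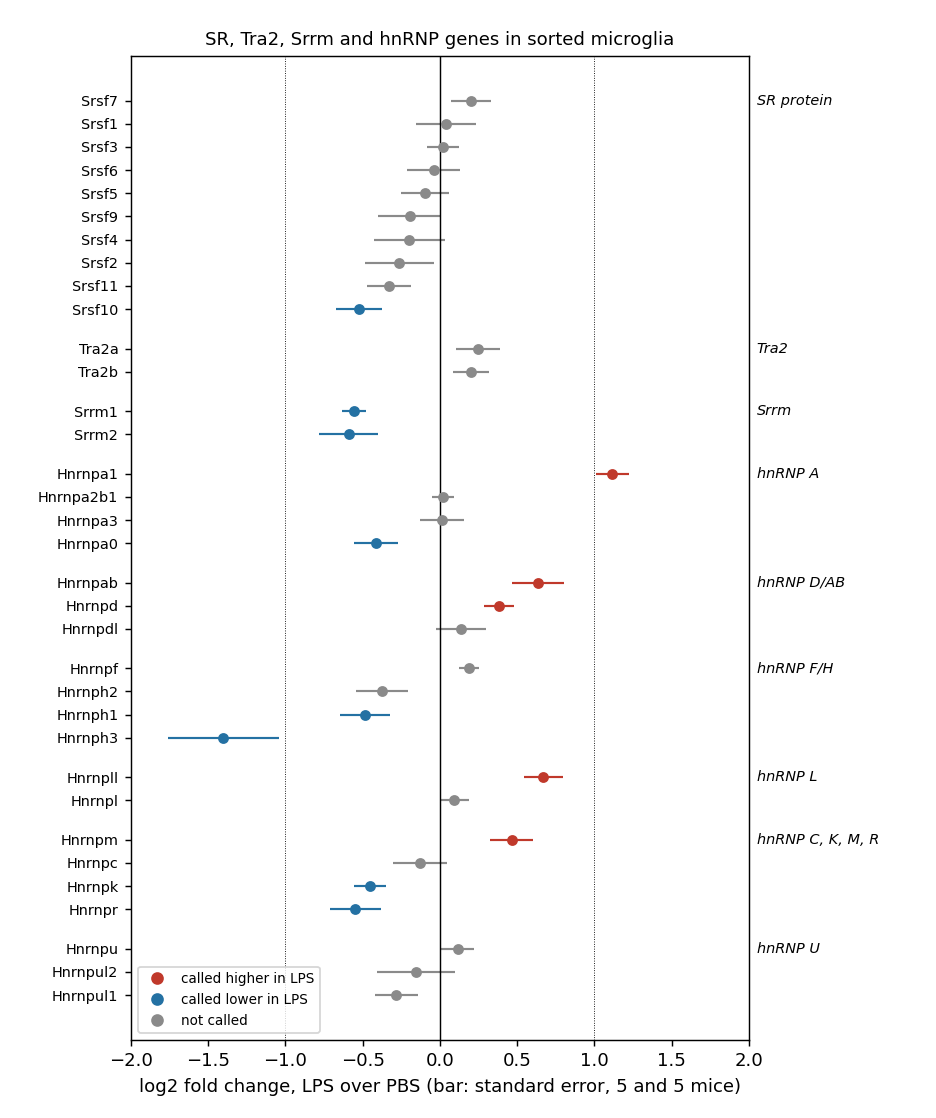
Log2 fold change, LPS over PBS, of the 34 tested members by subfamily (points) with its standard error over 5 and 5 mice (bars). Dotted lines mark 2-fold changes. Red and blue points are members called higher and lower in LPS mice by edgeR, and grey points were not called. Hnrnpa1 and Hnrnph3 lie beyond 2-fold, and every SR protein gene but Srsf10 is grey.

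The hnRNP A subfamily diverged. Hnrnpa1 (Entrez 15382, chr15:103239943-103246698, GRCm38), which encodes a classic silencer-binding antagonist of SR proteins, had 27.6, 28.7, 26.1, 25.4 and 26.8 CPM in LPS622, LPS630, LPS671, LPS697 and LPS700. In PBS621, PBS629, PBS672, PBS673 and PBS703 it had 14.5, 12.8, 13.9, 10.7 and 10.2 CPM. The groups were well apart, and the lowest LPS mouse was above the highest PBS mouse. Its level was 2.17-fold higher in LPS mice (log2 fold change 1.12 ± 0.11, SE, edgeR adjusted p = 5.39e-05), the largest rise among the members. Hnrnpa1 has processed pseudogenes with near-identical sequence, so its counts are uncertain to the extent that reads were shared with them. The pseudogene row Hnrnpa1l2-ps, left out by the rule, held 27 counts in all LPS libraries and 8 in all PBS libraries, against 1783 and 857 for Hnrnpa1.

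Hnrnpa0 (Entrez 77134, chr13:58125879-58128556), whose protein binds AU-rich elements of inflammatory transcripts, moved the other way. It had 38.2, 34.7, 29.1, 40.1 and 33.97 CPM in LPS mice, and 48.9, 37.4, 49.4, 39.6 and 59.5 CPM in PBS mice, in the same order of mice. The groups overlapped, with PBS629 and PBS673 within the LPS range. It fell by 0.42 ± 0.14 on the log2 scale (edgeR adjusted p = 0.0376), but the call rests on single mice. It was lost without LPS622, LPS630, LPS671 or LPS700 (adjusted p = 0.0506, 0.0660, 0.103 and 0.0792) and without PBS621, PBS672 or PBS703 (adjusted p = 0.0706, 0.0861 and 0.0967). It was also lost with RLE scaling, without a filter and with DESeq2 (adjusted p = 0.0510, 0.0587 and 0.0546), and with limma on log2 RPKM (adjusted p of 0.0612 to 0.0717 over 3 settings).

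The other hnRNP A genes showed no detectable difference. Hnrnpa2b1, whose protein takes part in splicing and in RNA transport, had 707, 742, 833, 647 and 689 CPM in LPS mice and 688, 781, 701, 724 and 676 CPM in PBS mice. The groups lay on top of each other, and the 95% interval of its log2 fold change ran from -0.14 to 0.18 (edgeR adjusted p = 0.907). Hnrnpa3, a related shuttling protein, averaged 9.53 ± 1.84 CPM in LPS mice and 9.45 ± 1.12 CPM in PBS mice (SD, n = 5 each), with an interval of -0.32 to 0.34. Per unit of gene length, in the authors' RPKM, Hnrnpa1 stood at 7.33% ± 0.67 of Hnrnpa2b1 in LPS mice and 3.41% ± 0.56 in PBS mice (SD, n = 5 each), with no overlap between the groups.

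In the D and AB subfamily 2 of 3 members were called, both higher in LPS mice (66.7%, against 45.0% of all tested genes in either direction). Hnrnpab (Entrez 15384, chr11:51600100-51606881), which encodes a nucleic acid binding protein with roles in transcription and RNA transport, had 36.3, 42.1, 43.7, 47.7 and 51.0 CPM in LPS mice. In PBS mice it had 29.4, 21.2, 27.0, 25.1 and 39.4 CPM. A single PBS mouse, PBS703, reached into the LPS range. Its level was 1.55-fold higher in LPS mice (log2 fold change 0.63 ± 0.17, edgeR adjusted p = 0.00711).

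Hnrnpd (Entrez 11991, chr5:99955935-99979130), known as AUF1, promotes the decay of cytokine transcripts that carry AU-rich elements. It had 61.8, 59.8, 54.7, 57.4 and 66.4 CPM in LPS mice, and 51.8, 42.7, 42.8, 53.2 and 39.7 CPM in PBS mice. The groups did not overlap, though LPS671 and PBS673 came close to each other. The log2 fold change was 0.38 ± 0.10 (edgeR adjusted p = 0.0243), and the call was lost without PBS672 or PBS703 (adjusted p = 0.0547 and 0.0635), with library size alone (0.0840) and without a filter (0.0949). Its paralog Hnrnpdl averaged 123 ± 13.8 CPM in LPS mice and 112 ± 24.4 CPM in PBS mice (SD, n = 5 each), with a 95% interval of the log2 fold change of -0.24 to 0.51 (edgeR adjusted p = 0.504).

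**Figure D2:**
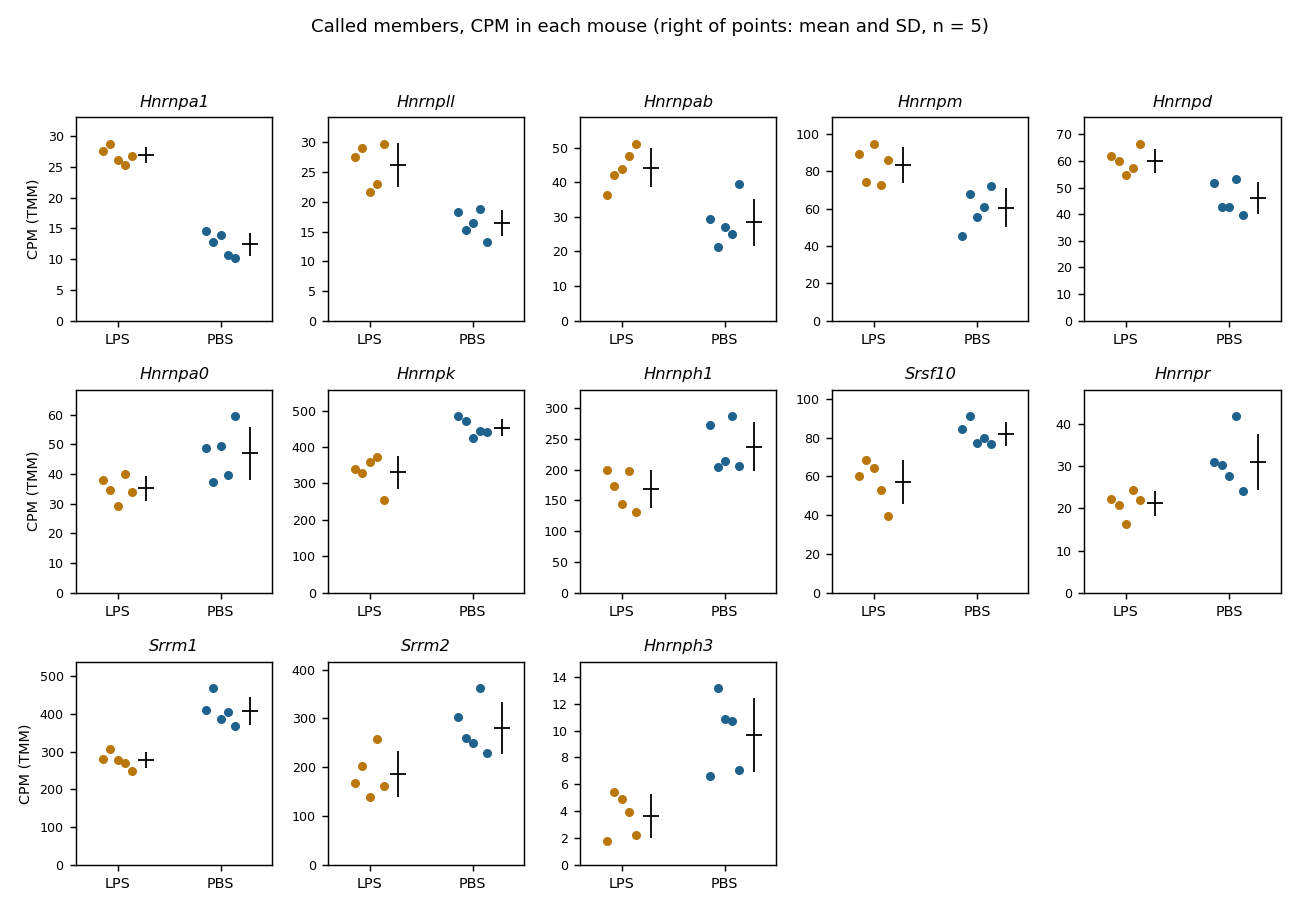
CPM in each mouse (points) of the 13 called members, LPS at left and PBS at right in each panel, with the mean and SD of 5 mice beside the points. The 5 genes of the top row were higher in LPS mice and the other 8 were lower. Hnrnpa1 shows the widest gap between the groups relative to their spread.

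To show the sequence next to these genes, the 250 bases upstream of the RefSeq start (GRCm38.p6, strand of the gene, 5′ to 3′) are printed for Hnrnpa1 and Hnrnpab, which rose, and beside them for Hnrnpa0, which fell. The choice was made with their values in view, among members with a RefSeq promoter entry, which Hnrnpll lacks, and only where no GENCODE exon overlaps the window. Capitals mark every match to CCAAT or GGGCGG on either strand, so ATTGG and CCGCCC are capitals as well. The windows are chr15:103240147-103240396 on the plus strand for Hnrnpa1, chr11:51606882-51607131 on the minus strand for Hnrnpab and chr13:58128557-58128806 on the minus strand for Hnrnpa0. The Hnrnpa1 window lies inside the RefSeq gene span, downstream of a start used by another transcript.
Hnrnpa1: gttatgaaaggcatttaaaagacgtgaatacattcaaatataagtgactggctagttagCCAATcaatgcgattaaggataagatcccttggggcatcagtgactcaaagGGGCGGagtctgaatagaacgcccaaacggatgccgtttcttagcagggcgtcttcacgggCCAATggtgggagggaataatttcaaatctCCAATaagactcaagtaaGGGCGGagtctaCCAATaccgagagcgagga
Hnrnpab: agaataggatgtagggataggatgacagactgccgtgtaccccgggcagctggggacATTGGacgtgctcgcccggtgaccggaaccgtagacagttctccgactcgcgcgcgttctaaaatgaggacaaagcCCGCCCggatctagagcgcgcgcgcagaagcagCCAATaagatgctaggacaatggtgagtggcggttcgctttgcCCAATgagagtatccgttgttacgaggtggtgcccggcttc
Hnrnpa0: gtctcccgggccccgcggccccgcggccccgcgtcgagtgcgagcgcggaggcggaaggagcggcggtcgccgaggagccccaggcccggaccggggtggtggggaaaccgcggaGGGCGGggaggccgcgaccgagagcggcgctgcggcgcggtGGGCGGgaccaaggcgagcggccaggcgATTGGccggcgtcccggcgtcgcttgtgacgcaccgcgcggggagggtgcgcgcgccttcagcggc
The Hnrnpa1 window held 4 CCAAT boxes and 2 GC boxes at a GC content of 46.0% with 11 CpG sites. The Hnrnpab window held 3 CCAAT boxes and 1 GC box at 58.4% GC with 23 CpG sites. The Hnrnpa0 window held 1 CCAAT box and 2 GC boxes at 81.2% GC with 46 CpG sites.

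RefSeq promoter entries were found for 35 of the 38 members, 48 entries in all, and 7 motifs were searched on both strands in the same upstream window of these and of all 32851 entries. CCAAT, to which the factor NF-Y binds, was in 47.9% of member entries and 33.8% of all entries. GGGCGG, the GC box of the Sp family, was in 75.0% of member entries and 32.7% of all. CCGGAAG, an ETS motif, was in 18.8% of member entries and 6.91% of all. The E-box CACGTG was in 6.25% and 6.02%, the cyclic AMP response element TGACGTCA in 2.08% and 1.55%, and the interferon response element, 2 copies of GAAA with 2 bases between them, in 2.08% and 2.98%. The NF-kB consensus was in 0 of the 48 member entries and in 3.90% of all entries. The median GC content was 64.4% in member entries, with 23 CpG sites, and 52.4% in all entries, with 6 CpG sites. By gene, CCAAT was found for 19 of the 35 members with an entry, among them 2 of 4 called higher and 6 of 8 called lower. The GC box was found for 27 of the 35, among them 3 of 4 higher and 6 of 8 lower. These splits were not tested. A match describes these letters only and does not show binding.

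In the L subfamily, whose proteins bind CA-rich RNA, only Hnrnpll was called. Hnrnpll (Entrez 72692, chr17:80029487-80062268), known for regulating Ptprc exons in lymphocytes, had 27.5, 29.0, 21.7, 22.9 and 29.7 CPM in LPS mice. It had 18.3, 15.3, 16.5, 18.8 and 13.3 CPM in PBS mice. The groups did not overlap, and it was 1.59-fold higher in LPS mice (log2 fold change 0.67 ± 0.13, edgeR adjusted p = 0.00348). Hnrnpl itself averaged 75.5 ± 8.57 CPM in LPS mice and 70.8 ± 6.62 CPM in PBS mice (SD, n = 5 each), with a 95% interval of the log2 fold change of -0.13 to 0.31. Per unit of length, Hnrnpll stood at 29.8% ± 5.60 of Hnrnpl in LPS mice and 19.8% ± 2.46 in PBS mice (SD, n = 5 each), and LPS697 overlapped the PBS range.

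Hnrnpm (Entrez 76936, chr17:33646233-33685458) encodes a splicing regulator known to restrain the maturation of innate immune transcripts such as Il6 in macrophages. It had 89.2, 74.4, 94.6, 72.8 and 86.1 CPM in LPS mice, and 45.3, 68.0, 55.8, 61.1 and 72.1 CPM in PBS mice. The groups did not overlap, but LPS697 and PBS703 were nearly level. The log2 fold change was 0.47 ± 0.14 (edgeR adjusted p = 0.0185). The call was lost without LPS671 or PBS621 (adjusted p = 0.0504 and 0.0539), with library size alone (0.0511) and with the length trend removed (0.0619).

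The F and H subfamily, whose proteins bind runs of G, held the largest fall. Hnrnph3 (Entrez 432467, chr10:63014664-63023980) had 1.76, 5.45, 4.89, 3.93 and 2.19 CPM in LPS mice, from 21, 71, 63, 62 and 28 counts. In PBS mice it had 6.65, 13.2, 10.8, 10.7 and 7.05 CPM, from 101, 155, 134, 172 and 99 counts. The groups did not overlap, but it was one of the least abundant members and varied widely within each group. It was 2.64-fold lower in LPS mice (log2 fold change -1.40 ± 0.36, edgeR adjusted p = 0.00299). Its locus overlaps Rufy2 in RefSeq, and reads of the 2 genes cannot be told apart if they were counted without strand.

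Hnrnph1 (Entrez 59013, chr11:50375257-50386528), the abundant member of the subfamily, had 199, 174, 145, 198 and 130.5 CPM in LPS mice. In PBS mice it had 273, 204, 215, 287 and 207 CPM. The highest LPS mice reached nearly to the lowest PBS mice. It was 1.40-fold lower in LPS mice (log2 fold change -0.49 ± 0.16, edgeR adjusted p = 0.0231), and the call was lost without LPS671, LPS700, PBS621 or PBS673 (adjusted p = 0.0654, 0.0579, 0.0594 and 0.0610).

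The close paralog Hnrnph2 averaged 53.0 ± 10.7 CPM in LPS mice and 68.8 ± 7.39 CPM in PBS mice (SD, n = 5 each), with a log2 fold change of -0.38 ± 0.17 that was not called (edgeR adjusted p = 0.0650). It was called lower without PBS703 (adjusted p = 0.0469), with library size alone (0.0362) and with the length trend removed (0.0121). Hnrnpf averaged 35.4 ± 2.04 CPM in LPS mice and 31.0 ± 2.44 CPM in PBS mice (SD, n = 5 each), and was not called either (log2 fold change 0.19 ± 0.06, edgeR adjusted p = 0.212). Per unit of length, Hnrnph3 stood at 8.02% to 22.8% of Hnrnpf in LPS mice and 28.1% to 61.0% in PBS mice, without overlap.

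Hnrnpk (Entrez 15387, chr13:58391132-58403343), which encodes a KH-domain protein that binds C-rich RNA, had 339, 328, 359, 372 and 254 CPM in LPS mice. In PBS mice it had 485, 470.0, 425, 443 and 442 CPM. The groups did not overlap, and LPS700 was the lowest mouse. It was 1.37-fold lower in LPS mice (log2 fold change -0.45 ± 0.10, edgeR adjusted p = 0.0121).

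Hnrnpr (Entrez 74326, chr4:136310942-136345981), an RNA-binding protein best known for axonal RNA transport in motor neurons, had 22.3, 20.9, 16.4, 24.5 and 22.0 CPM in LPS mice. It had 31.0, 30.2, 27.7, 41.9 and 24.1 CPM in PBS mice, where PBS703 fell within the LPS range. The log2 fold change was -0.55 ± 0.16 (edgeR adjusted p = 0.0176), and the call was lost without LPS671 or PBS673 (adjusted p = 0.0527 and 0.0544) and, at -0.03, once the length trend was removed (adjusted p = 0.870). Hnrnpc, which binds U tracts, averaged 101 ± 21.8 CPM in LPS mice and 111 ± 18.3 CPM in PBS mice (SD, n = 5 each), with a 95% interval of the log2 fold change of -0.53 to 0.27.

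None of the 3 hnRNP U genes was called, of which Hnrnpu encodes the scaffold attachment factor of nuclear chromatin. Hnrnpu averaged 253 ± 30.8 CPM in LPS mice and 234 ± 25.8 CPM in PBS mice (SD, n = 5 each), and its 95% interval of the log2 fold change ran from -0.13 to 0.36. The intervals were -0.60 to 0.04 for Hnrnpul1 and -0.73 to 0.42 for Hnrnpul2. With the length trend removed Hnrnpu was called higher at a log2 fold change of 0.55 (edgeR adjusted p = 0.00263).

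Of the 10 tested SR protein genes, 1 was called, beside 45.0% of all tested genes. Srsf10 (Entrez 14105, chr4:135855752-135869908), an atypical SR protein that represses splicing when it loses its phosphates, had 59.9, 68.4, 64.2, 52.9 and 39.4 CPM in LPS mice. In PBS mice it had 84.5, 91.0, 77.3, 79.8 and 76.6 CPM. The groups did not overlap, and LPS700 was the lowest mouse. It was 1.44-fold lower in LPS mice (log2 fold change -0.52 ± 0.15, edgeR adjusted p = 0.0113), and the call was lost at -0.16 once the length trend was removed (adjusted p = 0.418).

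The most abundant SR protein genes varied as much within a group as between groups. Srsf2, a nuclear enhancer-binding SR protein, had 549.7, 772, 672.03, 677 and 378 CPM in LPS mice and 836, 746, 678, 876 and 519 CPM in PBS mice. Srsf5 had 418, 368, 390.3, 407 and 271 CPM in LPS mice and 429, 478, 406, 362 and 309 CPM in PBS mice. Srsf7, which also serves in mRNA export, had 879, 770.2, 786, 595 and 658 CPM in LPS mice and 685, 670.2, 679.7, 669 and 505 CPM in PBS mice. In all 3 genes the groups overlapped, and the 95% interval of the log2 fold change ran from -0.78 to 0.26 for Srsf2, from -0.46 to 0.26 for Srsf5 and from -0.10 to 0.50 for Srsf7. LPS700 was the lowest LPS mouse and PBS703 the lowest PBS mouse for Srsf2 and Srsf5.

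Among the other SR protein genes, Srsf3, the partner of Srsf7 in export, had the narrowest interval, from -0.22 to 0.26, and averaged 122 ± 14.7 CPM in LPS mice and 121 ± 13.7 CPM in PBS mice (SD, n = 5 each). Srsf1, the founding SR protein, averaged 55.0 ± 12.2 CPM in LPS mice and 53.4 ± 10.6 CPM in PBS mice (SD, n = 5 each). Once the length trend was removed it was called higher, at a log2 fold change of 0.41 (edgeR adjusted p = 0.0385). The intervals were -0.44 to 0.36 for Srsf6, -0.67 to 0.27 for Srsf9 and -0.72 to 0.33 for Srsf4, and Srsf9 was called lower, at -0.74, once the length trend was removed (adjusted p = 0.00161). Srsf11 averaged 123 ± 19.8 CPM in LPS mice and 154 ± 25.7 CPM in PBS mice (SD, n = 5 each), and was not called (log2 fold change -0.33 ± 0.14, edgeR adjusted p = 0.0854) unless LPS697 was left out (adjusted p = 0.0149).

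Both Tra2 genes had slightly higher means in LPS mice without a call. Tra2a averaged 30.1 ± 4.92 CPM in LPS mice and 25.3 ± 3.01 CPM in PBS mice (SD, n = 5 each), with a 95% interval of the log2 fold change of -0.08 to 0.57. Tra2b averaged 28.1 ± 2.15 CPM in LPS mice and 24.5 ± 4.15 CPM in PBS mice (SD, n = 5 each), with an interval of -0.06 to 0.46.

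Both tested Srrm genes were lower in LPS mice. Srrm1 (Entrez 51796, chr4:135320484-135353277), a splicing coactivator, had 281, 308, 277, 270.1 and 249 CPM in LPS mice and 409.8, 469, 388, 405 and 368 CPM in PBS mice. Every LPS mouse was below every PBS mouse. It was 1.47-fold lower (log2 fold change -0.56 ± 0.08, edgeR adjusted p = 0.00218), with the smallest p of the lower members.

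Srrm2 (Entrez 75956, chr17:23790527-23824741), which encodes a large scaffold protein of nuclear speckles, had 169, 202, 139, 259 and 162 CPM in LPS mice and 303, 260.2, 249, 362 and 228 CPM in PBS mice. LPS697 reached into the PBS range. It was 1.51-fold lower (log2 fold change -0.59 ± 0.19, edgeR adjusted p = 0.0160). Neither gene was called once the length trend was removed, with log2 fold changes of -0.21 for Srrm1 and 0.02 for Srrm2 (adjusted p = 0.172 and 0.932).

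The 4 members that were not tested were near the limit of detection. Srsf12 had 0 counts in all LPS libraries and 3 in all PBS libraries. Srrm3 and Srrm4, which drive neuronal microexon splicing, had 3 and 5 counts in all LPS libraries and 1 and 1 in all PBS libraries, and Srrm4os had 1 and 0. A count of 0 over the 5 LPS libraries allows a level of up to 0.0438 CPM, from a floor of 3 counts, for counting error only.

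The members differed far more in level than in response to LPS. On the scale of the authors' RPKM, which divides by gene length, Srsf5, Srsf2 and Srsf7 were the most abundant members, with means over all 10 mice of 232, 225 and 214 RPKM. Srsf7 had 231 ± 36.6 RPKM in LPS mice and 197 ± 23.0 RPKM in PBS mice, Srsf5 had 226 ± 35.0 and 237 ± 39.9, and Srsf2 had 207 ± 51.3 and 243 ± 44.0, in the same order of groups (SD, n = 5 each). Their means lay within the spread between mice of each other, and their order differed between the groups. Hnrnpa2b1, at 168 RPKM over all mice, Hnrnpk, at 122, and Hnrnph1, at 86.7, followed in that order in both groups. Srrm1 (61.7 RPKM) came next, and Srsf9, Srsf6 and Srsf3 lay close together at 45.5, 41.0 and 40.01 RPKM. At the low end Hnrnpr, Hnrnph3 and Hnrnpa3 had 3.00, 2.85 and 1.81 RPKM, and Srsf4 had 0.285 RPKM, 813-fold less than Srsf5. Hnrnpa1 was the 21st member by RPKM in LPS mice and the 28th in PBS mice, and Hnrnpm was the 12th and the 17th.

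**Figure D3:**
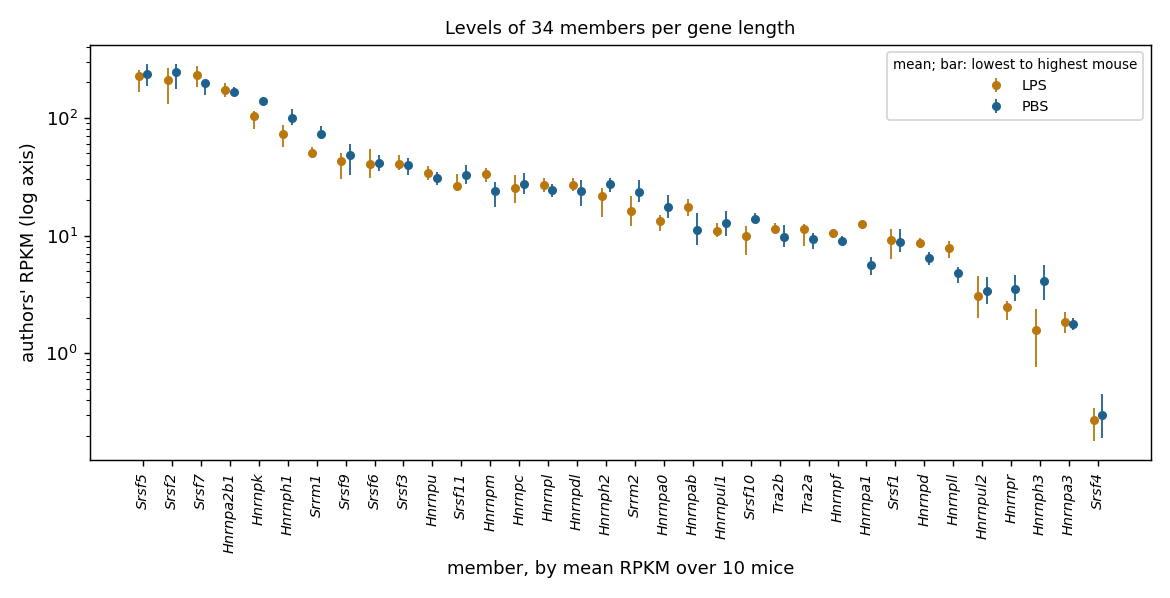
Authors' RPKM (log axis) of the 34 tested members, ordered by the mean over 10 mice. Points are the mean of 5 mice, LPS left and PBS right, and bars run from the lowest to the highest mouse. Srsf5, Srsf2, Srsf7 and Hnrnpa2b1 lead at 168 to 232 RPKM, and Srsf4 lies last at 0.285 RPKM.

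Gene length moved with the response in these libraries and touches several members. Over all 13199 tested genes with a length, the log2 fold change fell with length (Spearman -0.48, across genes, which are not independent replicates). Over the 34 members the same correlation was -0.17, and it was 0.34 for fold changes with the length trend removed. For the members that removal left a trend of the other sign, so calls it adds or takes away are not taken as corrected. When a smooth trend over gene length was taken out of each library, 14 members were called, 41.2%, against 37.8% of all tested genes with a length, 8 higher and 6 lower. Of the 13 members called without that step, 8 kept their call and direction, namely Hnrnpa1, Hnrnpll, Hnrnpab, Hnrnpd, Hnrnph3, Hnrnph1, Hnrnpk and Hnrnpa0. The 5 that lost it were Srrm1, Srrm2, Hnrnpr, Srsf10 and Hnrnpm. The first 4 of these are long, at 1.77, 3.74, 2.76 and 1.87 times the length of the median tested gene, and Hnrnpm is shorter, at 0.806 times. Hnrnpu, Hnrnpdl, Srsf1 and Hnrnpf were then called higher and Srsf9 and Hnrnph2 lower.

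**Figure D4:**
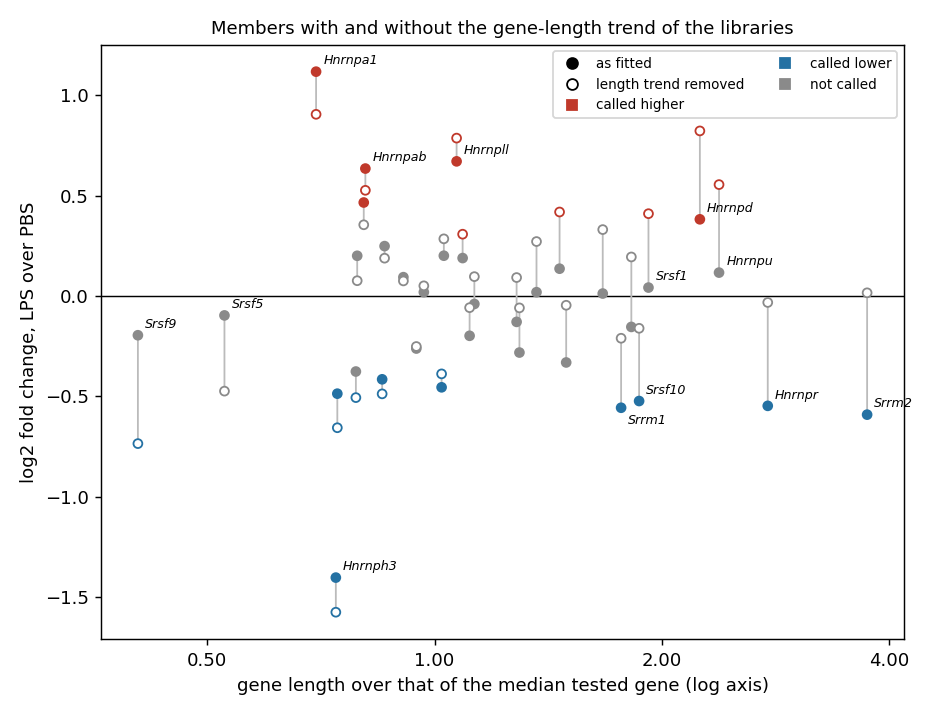
Log2 fold change, LPS over PBS, of the 34 tested members against gene length relative to the median tested gene (log axis), as fitted (filled points) and with each library's length trend removed (open points), joined by a line for each gene. Colour gives the call (red higher, blue lower, grey none). Long genes such as Srrm2 and Hnrnpr move up to near 0, and Hnrnpa1 and Hnrnph3 stay far from 0 on either fit.

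The 13 called members had the same sign of difference within each of the 3 ranges of mouse numbers in the titles. These ranges ran from PBS621 to LPS630, from LPS671 to PBS673 and from LPS697 to PBS703, each with mice of both groups. The members were called on these same mice, so a shared sign follows in part from that choice and is no separate test. The share over all called genes was not computed. The labels do not say what these ranges are. For Hnrnpa1 the log2 difference was 1.04, 1.09 and 1.34 in the 3 ranges, and for Hnrnph3 it was -1.54, -1.12 and -1.22. For Hnrnpr it was -0.50, -1.05 and -0.05, and for Srrm2 -0.60, -1.11 and -0.16. In the last range, where the difference was small, PBS703 was the only PBS mouse and the lowest PBS mouse for both genes (24.1 and 228 CPM). LPS697 of the same range was the highest LPS mouse for both (24.5 and 259 CPM). Likewise LPS671, the only LPS mouse of the middle range, was the lowest LPS mouse for both genes (16.4 and 139 CPM).

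The wider splicing apparatus gives these members their setting. Of 130 genes in 6 lists of splicing factors outside the name rule, 123 were tested, of which 26 were called higher and 28 lower, 43.9% against the 45.0% of all tested genes. With the length trend removed the split was 26 higher and 19 lower. On that fit 37.8% of all tested genes with a length were called, 19.2% higher and 18.6% lower. These shares are the background for the trend-removed counts of every list below. Of 12 listed genes for SR protein kinases and nuclear import receptors, none was called higher and 5 were called lower, 41.7% against 45.0% of all tested genes. The median log2 fold change of this list was -0.35. Not all of its import receptors are particular to SR proteins, and Tnpo1 was among the 5 lower genes. Srpk3, an SR protein kinase best known from muscle, averaged 19.7 ± 8.02 CPM in LPS mice and 147 ± 30.1 CPM in PBS mice (SD, n = 5 each), 7.49-fold lower (edgeR adjusted p = 1.95e-06). Tnpo3, the importin of SR proteins, averaged 46.9 ± 9.64 CPM in LPS mice and 79.5 ± 15.5 CPM in PBS mice (SD, n = 5 each), 1.70-fold lower (edgeR adjusted p = 0.00298). After removal of the length trend this list had 1 member higher and 3 lower and a median of -0.05, and both of these genes stayed lower.

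Among 18 RS-rich and SR-related factors 1 was called higher and 5 lower, 33.3% against 45.0% of all tested genes. Their median log2 fold change was -0.26. Rnps1, which joins splicing to the exon junction complex, was 1.62-fold higher in LPS mice (edgeR adjusted p = 0.00195). Luc7l2, a component of the U1 particle, and Sfswap, an SR-like splicing regulator, were 1.83-fold and 1.51-fold lower (edgeR adjusted p = 0.00169 and 0.0158). Once the length trend was removed 5 members of this list were higher and none lower. The shares over all tested genes with a length were then 19.2% and 18.6%. The sign of the median turned, at 0.10, and neither Luc7l2 nor Sfswap was called (edgeR adjusted p = 0.0956 and 0.188).

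Of the 33 tested genes for other alternative splicing regulators 2 were called higher and 13 lower. That is 45.5%, against 45.0% of all tested genes, of which 22.4% were higher and 22.5% lower. The median log2 fold change of the list was -0.34. Qk, which encodes the quaking protein, averaged 313 ± 48.3 CPM in LPS mice and 1022 ± 96.7 CPM in PBS mice (SD, n = 5 each), 3.26-fold lower (edgeR adjusted p = 9.27e-07). Mbnl1, a muscleblind splicing factor, averaged 179 ± 23.3 CPM in LPS mice and 598 ± 106 CPM in PBS mice (SD, n = 5 each), 3.34-fold lower (edgeR adjusted p = 1.49e-06). Rbm3, a cold-inducible RNA-binding protein, was 2.34-fold higher (edgeR adjusted p = 0.000369), and Pcbp1, a poly-C binding protein related to Hnrnpk, 1.54-fold higher (adjusted p = 0.0115). Without the length trend 7 genes of this list were higher and 12 lower, beside 19.2% and 18.6% of all tested genes with a length. The median was then -0.06, and Pcbp1 was not called (edgeR adjusted p = 0.206).

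Most Sm and LSm ring proteins are small proteins that encircle spliceosomal RNAs, though not every listed one, such as Lsm1, does. Of the 15 tested, 11 were called higher and none lower, beside 22.4% higher and 22.5% lower over all tested genes. The median log2 fold change of the list was 0.78. No test compared the list with other genes. Snrpd1 averaged 35.9 ± 8.10 CPM in LPS mice and 13.4 ± 2.30 CPM in PBS mice (SD, n = 5 each), 2.67-fold higher (edgeR adjusted p = 4.59e-05). Snrpd3 was 2.04-fold higher (edgeR adjusted p = 0.000627). With the length trend removed only 4 genes of this list were higher and 1 lower, and the median was 0.25. On that fit 19.2% of all tested genes with a length were higher and 18.6% lower. Snrpd3 was then not called (edgeR adjusted p = 0.128). 

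Of 30 snRNP-specific and core spliceosome genes 7 were called higher and 4 lower, 36.7% against 45.0% of all tested genes. Their median log2 fold change was 0.15. Snrpa1, of the U2 particle, and Prpf31, of the tri-snRNP, were 2.47-fold and 1.73-fold higher (edgeR adjusted p = 6.55e-05 and 0.000475), while Sf3b1 and Prpf6 were 1.58-fold and 1.43-fold lower (adjusted p = 0.00112 and 0.0154). After removal of the length trend 3 were higher and 2 lower, beside 19.2% and 18.6% of all tested genes with a length. The median was then 0.05, and Sf3b1 was not called (edgeR adjusted p = 0.152). Of 15 genes of the exon junction complex and nonsense-mediated decay 5 were called higher and 1 lower. Over all tested genes 45.0% were called, 22.4% higher and 22.5% lower. The median log2 fold change of the list was 0.30. Without the length trend 6 were higher and 1 lower, beside 19.2% and 18.6% of all tested genes with a length. The median was then 0.25. Magohb and Rbm8a, both core subunits of the complex, were 2.06-fold and 1.48-fold higher (edgeR adjusted p = 0.00116 and 0.00588), and Smg1, the kinase of the decay pathway, was 2.13-fold lower (adjusted p = 0.000176).

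**Figure D5:**
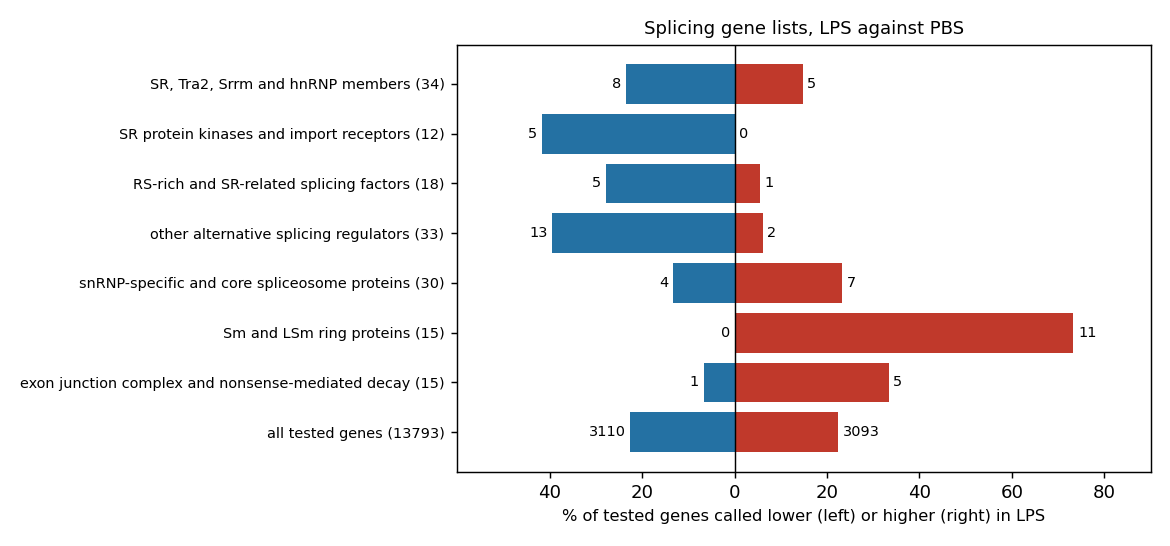
Share of tested genes called lower (left, blue) and higher (right, red) in LPS mice by edgeR at an adjusted p under 0.05, for the members, for 6 lists of splicing genes and for all tested genes. Numbers at the bars are genes called, and numbers in brackets are genes tested. The Sm and LSm list has 11 higher and 0 lower genes, and the kinase and import list 0 higher and 5 lower. With the length trend removed, which is not drawn, these were 4 higher and 1 lower, and 1 higher and 3 lower.

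Genome neighbourhood limits some of these values. In the RefSeq annotation 14 of the 38 members overlap another gene, among them 6 of the 13 called members, namely Hnrnpab, Hnrnpd, Hnrnph3, Hnrnpk, Hnrnpll and Srrm2. No source used here says whether the authors counted by strand, so counts in the overlaps may belong to either gene.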

How the data were processed

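RNA was amplified with a low-input kit before library construction, per the labels' protocols, and carries no molecular identifiers there, so the floor of 3 counts covers counting error only. The authors deposited raw counts per gene, and the submitters' processing notes name featureCounts, GRCm38 and mm10. Not given in the sources used here were the aligner, annotation, counter version and strand setting. The authors also deposited normalised RPKM values for 13199 genes, and for 10789 of them in a second, mostly protein-coding table, which were used to compare levels between genes. Both tables have CRAC in their names, which is also the name of a read mapper, but no label says that it was the aligner. In both tables a value equals a count times a factor per library and a factor per gene, and the latter gave relative gene lengths. The last row of the count table, 1 row without gene name or counts, was dropped, and 15 gene names that a spreadsheet had turned into dates were restored from Entrez IDs. Of the gene IDs 37659 were found in the RefSeq table of GRCm38.p6, the source of coordinates.

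Counts were tested with edgeR 4.0.16 (R 4.3.3) by TMM scaling, filterByExpr and the quasi-likelihood test, with Benjamini-Hochberg adjustment over all 13793 tested genes and no covariate. Standard errors come from log2 CPM with a prior count of 2. The length trend was removed per library with a natural spline of 5 degrees of freedom. Alternatives were RLE, upper quartile and library size scaling, no filter, a filter of 1 CPM in 5 libraries, DESeq2 1.42.0, limma-voom (limma 3.58.1), title-number ranges as a term, protein-coding genes only, limma on log2(RPKM + 1) and log2(RPKM + 0.1) for genes with a mean of at least 1 RPKM, and each mouse left out. The RPKM test on the coding table was chosen after seeing the data.

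Values in every mouse are given for the called members whose mean over all mice reaches 5 CPM, which are all 13, and the 6 members with the highest RPKM. Of each splicing list the 2 called genes with the smallest adjusted p in each direction are named. The members and lists were chosen with earlier results of these data known.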

Additional observations from a re-analysis of the deposited data

Results flagged for a closer look

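Of 68 groups of 5 mice (34 tested members in LPS and in PBS mice), 3 held a mouse far from the other 4, by a rule that chance meets in about 1 of 20 groups. Hnrnph2 was at 34.5 CPM in LPS700, against 55.5 to 62.7 CPM in the other LPS mice. Srsf11 was at 158 CPM in LPS697, against 110.3 to 118 CPM in the other LPS mice, and without that mouse it was called lower in LPS mice (edgeR adjusted p = 0.0149). Srsf7 was at 505 CPM in PBS703, against 669 to 685 CPM in the other PBS mice. The cause of these values was not tested.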

How the results depend on the processing

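The count of members called higher in LPS mice, 5, was 3 with library size alone and 8 with the gene-length trend removed. Without 1 mouse at a time it ran from 4 to 5, and the count called lower from 5 (without LPS671) to 9, against 8. Over all tested genes those refits called 2661 to 3607 higher and 2657 to 3559 lower, and over the splicing lists 24 to 32 in either direction.

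Log2 fold changes that turned sign belonged to members that were not called, apart from Srrm2 (0.016 with the length trend removed). With that trend removed Hnrnpc was at 0.092, Hnrnpul2 at 0.19 and Srsf6 at 0.096. With library size alone Hnrnpa2b1, Hnrnpa3, Srsf1 and Srsf3 were at -0.070, -0.075, -0.039 and -0.068. Without a filter Hnrnpa2b1, Hnrnpa3 and Srsf3 were at -0.0015, -0.0069 and -0.0027. Hnrnpa3 was at -0.00094 with upper quartile factors and -0.0028 with limma-voom. Leaving out 1 mouse at a time gave -0.032 to 0.057 for Hnrnpa2b1, -0.075 to 0.092 for Hnrnpa3, -0.033 to 0.16 for Srsf1, -0.043 to 0.073 for Srsf3, -0.18 to 0.0099 for Srsf5 and -0.16 to 0.049 for Srsf6. The cause was not tested. No paired analysis was run because the labels name no pairs of mice.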
